A study of Mus musculus with 13 samples.

Results

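RNA-seq read counts of 9 genes of the hypoxia pathway were followed in splenic B cells of mice with floxed or intact Regnase-1 alleles. The genes were chosen by symbol, with earlier results of these data known: Hif1a, Arnt, Egln1, Egln2, Vhl, Adm, Vegfa, Ddit4 and Bnip3. Shares among them, and among the gene lists below, are therefore not those of an unselected set. Each of the 9 symbols had a row among the 23336 symbols used, and all 9 passed the filter on low counts that left 13574 genes for testing. Deficient cells came from mice labelled Regnase-1 f/f with hCD20TamCre, that is, with loxP-flanked Zc3h12a, which encodes Regnase-1, an enzyme that degrades RNA, and a Cre recombinase placed under human CD20 and switched on by tamoxifen. Control cells were labelled Regnase-1 +/+ with hCD20TamCre, so that both genotypes carried the same Cre and the deletion was aimed at B cells. Both genotypes were profiled after anti-IgM F(ab')2 had engaged the B cell receptor (BCR) for 4 h, and unstimulated. This gave 3 deficient stimulated, 3 control stimulated, 3 deficient unstimulated and 4 control unstimulated libraries. No time in culture is labelled for unstimulated cells, so a change after stimulation may include a change with 4 h in culture. The labels also give no tamoxifen schedule and no age, and they number the libraries without saying that each is a separate animal. Sex, read from sex-linked genes, was mixed in every group, with deficient libraries mostly male and control libraries mostly female.

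In the textbook account of this pathway, the hypoxia-inducible factor (HIF) is a pair of proteins, an oxygen-regulated alpha subunit such as that of Hif1a and a constant beta subunit encoded by Arnt. While oxygen is ample, prolyl hydroxylases, among them those of Egln1 and Egln2, modify the alpha subunit, which the ubiquitin ligase component encoded by Vhl then marks for destruction. When it escapes destruction, HIF raises transcription of genes for blood vessel growth, glycolysis and survival, such as Adm, Vegfa, Ddit4 and Bnip3. In lymphocytes, antigen receptor signalling is also known to raise HIF-1 alpha protein without hypoxia, and oxygen control acts mainly on that protein rather than on its RNA. Only RNA was measured here.

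HIF binds DNA at a short core, ACGTG or GCGTG, and the 250 bases before the transcription start of each gene were read from RefSeq (build GRCm38.p6, the same coordinates as mm10) on both strands. The table held all 9 genes with 11 start windows in total, since Egln2 and Vegfa have 2 each. A core was present in 9 of the 11 windows and in at least one window of 8 of the 9 genes, all but Vhl. Vegfa counts there through its second window only (chr17:46025164-46025413), which lies inside the gene's span in GENCODE vM21. The second Egln2 window (chr7:27165729-27165978) and the Hif1a window (chr12:73907617-73907866) also lie inside the spans of their genes. Cores in such windows need not be upstream of the main start. Among all 32851 windows in the table, 38.6% held either core, 16.6% held ACGTG, 28.2% held GCGTG and 6.0% held the palindrome CACGTG, which counts as ACGTG on both strands. A match describes the letters of the window and is not evidence of a binding site. Windows of 4 genes are printed in lower case with the cores, on either strand, in capitals. Adm and Egln2 are shown as the genes that differed between genotypes after stimulation, and Vegfa and Bnip3 as the genes with the largest rise and the largest fall with stimulation among the 9.
Adm, chr7:110627407-110627656, plus strand: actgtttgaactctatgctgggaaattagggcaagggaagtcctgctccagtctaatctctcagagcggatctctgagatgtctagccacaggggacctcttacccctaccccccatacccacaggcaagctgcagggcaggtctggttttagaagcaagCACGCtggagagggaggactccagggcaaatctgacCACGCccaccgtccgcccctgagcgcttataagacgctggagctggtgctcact
Egln2, first start, chr7:27166803-27167052, minus strand: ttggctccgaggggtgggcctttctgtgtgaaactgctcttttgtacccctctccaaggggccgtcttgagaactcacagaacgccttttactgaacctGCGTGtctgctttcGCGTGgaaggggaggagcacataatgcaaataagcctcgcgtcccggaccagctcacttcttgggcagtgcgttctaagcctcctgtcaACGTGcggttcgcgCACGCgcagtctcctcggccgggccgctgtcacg
Vegfa, first start, chr17:46032378-46032627, minus strand: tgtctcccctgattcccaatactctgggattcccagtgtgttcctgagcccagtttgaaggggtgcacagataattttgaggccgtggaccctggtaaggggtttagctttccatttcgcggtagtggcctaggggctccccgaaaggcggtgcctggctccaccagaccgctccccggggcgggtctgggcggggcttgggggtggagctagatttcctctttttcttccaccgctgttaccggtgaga
Bnip3, chr7:138909507-138909756, minus strand: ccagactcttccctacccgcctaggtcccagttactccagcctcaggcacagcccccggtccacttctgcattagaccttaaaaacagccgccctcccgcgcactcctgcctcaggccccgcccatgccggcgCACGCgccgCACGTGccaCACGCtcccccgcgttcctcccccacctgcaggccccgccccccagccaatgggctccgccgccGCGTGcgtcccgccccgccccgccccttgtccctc
The Adm window held 2 cores, both GCGTG read on the opposite strand. The first Egln2 window held 4 (1 ACGTG and 3 GCGTG) and the Bnip3 window 5 (2 ACGTG, which are the 2 strands of 1 CACGTG palindrome, and 3 GCGTG). The first Vegfa window held 0, and the second Vegfa start, which is not printed, held 2.

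Library totals lay between 21407724 and 33244755 counts, at which 3 counts correspond to 0.0902 to 0.140 CPM (each count scaled to the library total). Levels are given as CPM after TMM scaling, a correction for library composition, and libraries are listed by number within each group. Zc3h12a itself was 92.6, 103 and 113 CPM in deficient stimulated libraries, against 157, 156 and 147 CPM in control stimulated libraries. Without stimulation it was 89.2, 99.6 and 111 CPM in deficient cells, against 124, 131, 121 and 124 CPM in control cells. Within each state every deficient library lay below every control library, with a log2 difference of -0.58 ± 0.08 (SE) after stimulation (adjusted p = 0.000784, edgeR's quasi-likelihood test, Benjamini-Hochberg adjustment over all genes) and -0.32 ± 0.07 without it (adjusted p = 0.106). The count covers the whole gene, and the labels do not give which exons were floxed. All 10 B cell markers were detected, with summed levels of 3427 to 3778 CPM in deficient stimulated, 3318 to 3467 CPM in control stimulated, 6008 to 7159 CPM in deficient unstimulated and 6266 to 7048 CPM in control unstimulated libraries. In bulk RNA, fewer cells of a type and less RNA per cell cannot be told apart. Among deficient libraries, both numbered 1 stood apart, with summed neutrophil markers of 297 CPM stimulated and 441 CPM unstimulated. Deficient libraries 2 and 3 had 38.4 to 71.5 CPM. Control libraries had 22.0 to 161 CPM stimulated and 33.2 to 421 CPM unstimulated, so an unstimulated control library was nearly as high. Results were also computed without both deficient libraries numbered 1. The same control libraries enter several of the comparisons below.

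Per kilobase of exon (GENCODE vM21 lengths, RPKM), the 9 genes covered a wide range of levels. In deficient stimulated libraries the mean level ran from Vegfa at 52.4 RPKM through Egln2 at 40.9, Hif1a at 32.6, Ddit4 at 15.1, Egln1 at 11.7, Arnt at 8.54, Vhl at 7.44 and Adm at 6.40 to Bnip3 at 2.47 RPKM. Only the neighbours Vhl and Adm overlapped there. In control stimulated libraries the order was Vegfa at 59.2, Hif1a at 32.3, Egln2 at 28.3, Ddit4 at 18.8, Adm at 13.5, Egln1 at 10.6, Arnt at 8.01, Vhl at 7.48 and Bnip3 at 2.53 RPKM, and no neighbours overlapped. Egln2 thus stood above Hif1a in stimulated deficient cells and below it in stimulated control cells, and Adm stood lower in the order in the deficient cells.

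Unstimulated cells had another order, with Adm the lowest of the 9 in both genotypes. Deficient libraries averaged 43.1 RPKM for Egln2, 31.0 for Hif1a, 27.6 for Ddit4, 15.1 for Arnt, 14.6 for Egln1, 11.01 for Vhl, 9.26 for Vegfa, 5.98 for Bnip3 and 2.24 for Adm, and of the neighbours only Arnt and Egln1 overlapped. Control libraries averaged 41.1 RPKM for Egln2, 32.3 for Ddit4, 32.0 for Hif1a, 15.0 for Egln1, 14.8 for Arnt, 11.3 for Vhl, 10.5 for Vegfa, 5.88 for Bnip3 and 2.94 for Adm. There Ddit4 overlapped Hif1a, Egln1 overlapped Arnt and Vhl overlapped Vegfa.

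**Figure D1:**
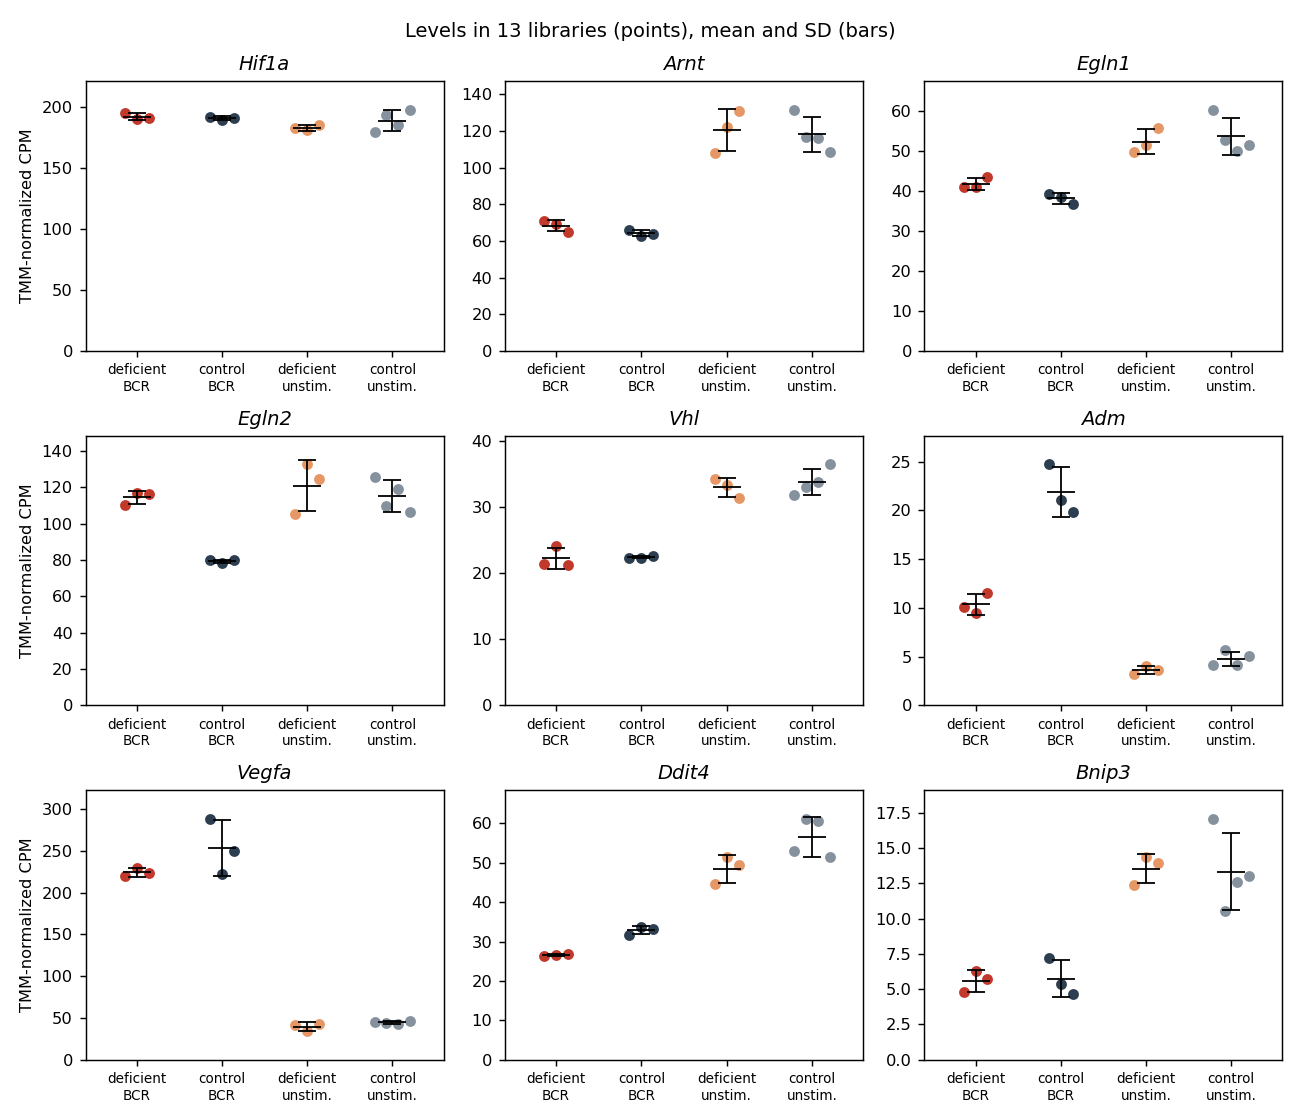
TMM-normalized CPM (vertical axis, from 0) of each of the 9 genes in deficient stimulated, control stimulated, deficient unstimulated and control unstimulated libraries. Points are libraries and bars are the mean and SD. Adm separates the stimulated genotypes (9.50 to 11.5 CPM in deficient, 19.9 to 24.7 CPM in control libraries), as does Egln2 (111 to 117 CPM in deficient, 78.2 to 79.8 CPM in control libraries), while Hif1a stays between 179 and 197 CPM in all 13 libraries.

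Most of the 9 genes differed between stimulated and unstimulated cells in both genotypes, as did most of all genes tested. In deficient cells 2 rose (Adm and Vegfa), 5 fell (Arnt, Egln1, Vhl, Ddit4 and Bnip3) and 2 did not pass the test (Hif1a and Egln2). In control cells the same 2 rose, 6 fell (Arnt, Egln1, Egln2, Vhl, Ddit4 and Bnip3) and only Hif1a did not pass. The test was edgeR's quasi-likelihood test at a Benjamini-Hochberg adjusted p under 0.05, which called 57.9% of all genes tested in deficient cells (28.3% higher, 29.6% lower) and 60.3% in control cells (28.5% higher, 31.8% lower), and the counts of 7 and 8 among the 9 genes stand beside these shares. Stimulated and unstimulated libraries did not overlap for 8 of the 9 genes in each genotype, against 62.0% of all genes in deficient and 63.5% in control cells. The median log2 change of the 9 genes was -0.324 in deficient and -0.539 in control cells, and that of all genes was -0.107 and -0.128.

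Of the HIF subunits, Hif1a (chromosome 12, 73901375 to 73947530, plus strand, mm10), the oxygen-regulated alpha subunit, was nearly level across the series. It was 195, 190 and 191 CPM in deficient stimulated, 192, 189 and 191 CPM in control stimulated, 182, 181 and 185 CPM in deficient unstimulated and 179, 193, 185 and 197 CPM in control unstimulated libraries. The 3 deficient stimulated libraries lay above the 3 deficient unstimulated ones without overlap, and the control groups overlapped. The log2 change with stimulation was 0.07 ± 0.05 (SE; 95% interval -0.03 to 0.17; adjusted p = 0.227) in deficient and 0.02 ± 0.04 (-0.08 to 0.11; adjusted p = 0.785) in control cells by edgeR's quasi-likelihood test. Its gene body overlaps the antisense transcript Gm15283, with 330 bases of shared exon, and the sources used here do not say whether the counting used strand.

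Arnt (chromosome 3, 95434388 to 95497240, plus strand), the constant beta subunit, fell with stimulation. It was 71.1, 69.3 and 64.9 CPM in deficient stimulated and 66.0, 62.8 and 63.7 CPM in control stimulated libraries, against 108, 122 and 131 CPM in deficient unstimulated and 132, 117, 116 and 109 CPM in control unstimulated libraries. Every stimulated library lay below every unstimulated library, and the genotypes overlapped in both states. The log2 change was -0.82 ± 0.08 in deficient and -0.88 ± 0.07 in control cells (edgeR's quasi-likelihood test, adjusted p = 2.0e-07 and 3.7e-08).

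The genes that act on the alpha subunit also fell, with Egln2 of the deficient cells as the exception. Egln1 (chromosome 8, 124908587 to 124949324, minus strand), the prolyl hydroxylase PHD2 and the main oxygen sensor of most tissues, was 41.1, 40.9 and 43.6 CPM in deficient stimulated and 39.3, 38.5 and 36.7 CPM in control stimulated libraries. In unstimulated cells it was 49.8, 51.6 and 55.9 CPM in deficient and 60.4, 52.8, 50.1 and 51.6 CPM in control libraries. The log2 change was -0.32 ± 0.08 in deficient (adjusted p = 0.00153 by edgeR's quasi-likelihood test) and -0.49 ± 0.07 in control cells (adjusted p = 1.65e-05). After stimulation the 3 deficient libraries all lay above the 3 control libraries, and without stimulation the genotypes overlapped.

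Egln2 (chromosome 7, 27158658 to 27166802, minus strand), the prolyl hydroxylase PHD1, was 111, 117 and 117 CPM in deficient stimulated libraries, against 79.8, 78.2 and 79.8 CPM in control stimulated libraries. Without stimulation it was 105, 133 and 125 CPM in deficient and 125, 110, 119 and 106 CPM in control libraries. Only the control stimulated libraries stood apart, below all 10 others. With stimulation Egln2 fell in control cells, by 0.54 ± 0.08 on the log2 scale (1.45-fold lower; adjusted p = 1.2e-05 by edgeR's quasi-likelihood test). In deficient cells the log2 change was -0.08 ± 0.08 (95% interval -0.25 to 0.09; adjusted p = 0.439). Its annotated end overlaps Cyp2t4 on the opposite strand over 11 bases.

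Vhl (chromosome 6, 113623959 to 113631633, plus strand), the substrate-binding part of the ubiquitin ligase, was 21.4, 24.2 and 21.3 CPM in deficient stimulated and 22.3, 22.3 and 22.6 CPM in control stimulated libraries. In unstimulated cells it was 34.3, 33.3 and 31.4 CPM in deficient and 31.8, 33.1, 33.9 and 36.5 CPM in control libraries. The stimulated libraries lay below all unstimulated ones, and the genotypes overlapped in each state. The log2 change was -0.57 ± 0.08 in deficient and -0.59 ± 0.07 in control cells (edgeR's quasi-likelihood test, adjusted p = 1.1e-05 and 3.0e-06).

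Adm and Vegfa, whose products are secreted, rose. Adm (chromosome 7, 110627661 to 110629820, plus strand) encodes adrenomedullin, a peptide that widens blood vessels and acts through Calcrl with a Ramp partner. It was 10.1, 9.50 and 11.5 CPM in deficient stimulated and 24.7, 21.05 and 19.9 CPM in control stimulated libraries. Without stimulation it was 3.21, 4.03 and 3.62 CPM in deficient and 4.17, 5.68, 4.15 and 5.04 CPM in control libraries. The 4 groups did not overlap: control stimulated libraries were highest, then deficient stimulated, control unstimulated and deficient unstimulated libraries. Adm rose 2.86-fold in deficient cells (log2 change 1.51 ± 0.16) and 4.60-fold in control cells (2.20 ± 0.14; edgeR's quasi-likelihood test, adjusted p = 4.9e-07 and 1.6e-09). These levels rest on 80 to 761 counts per library. The antisense transcript Gm28863 spans all 2160 bases of the gene but shares no exon base with it.

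Vegfa (chromosome 17, 46016993 to 46032369, minus strand), the vascular endothelial growth factor, had the largest rise of the 9. It was 220, 230 and 223 CPM in deficient stimulated and 288, 223 and 250 CPM in control stimulated libraries, against 41.9, 33.8 and 43.2 CPM in deficient unstimulated and 45.7, 44.5, 42.6 and 46.7 CPM in control unstimulated libraries. The states were far apart and the genotypes overlapped in both. The rise was 5.67-fold in deficient cells (log2 change 2.50 ± 0.10) and 5.65-fold in control cells (2.50 ± 0.09; edgeR's quasi-likelihood test, adjusted p = 2.6e-11 and 6.3e-12).

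Ddit4 and Bnip3, whose products stay inside the cell, fell as well. Ddit4 (chromosome 10, 59949669 to 59951834, minus strand), also called REDD1, which restrains the growth kinase complex mTORC1, was 26.3, 26.5 and 26.8 CPM in deficient stimulated and 31.8, 33.7 and 33.3 CPM in control stimulated libraries. In unstimulated cells it was 44.7, 51.4 and 49.3 CPM in deficient and 53.0, 61.2, 60.6 and 51.6 CPM in control libraries. Deficient libraries lay below control libraries in both states, and stimulated libraries lay below unstimulated ones in both genotypes. The log2 change with stimulation was -0.87 ± 0.08 in deficient and -0.78 ± 0.07 in control cells (edgeR's quasi-likelihood test, adjusted p = 1.1e-07 and 1.6e-07).

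Bnip3 (chromosome 7, 138890836 to 138909519, minus strand), a mitochondrial outer membrane protein that targets mitochondria for autophagy, was 4.78, 6.32 and 5.70 CPM in deficient stimulated and 7.18, 5.37 and 4.65 CPM in control stimulated libraries. Without stimulation it was 12.4, 14.4 and 13.9 CPM in deficient and 17.1, 10.6, 12.6 and 13.0 CPM in control libraries. The states did not overlap and the genotypes did. The log2 change was -1.27 ± 0.19 (2.41-fold lower) in deficient and -1.21 ± 0.18 (2.32-fold lower) in control cells (edgeR's quasi-likelihood test, adjusted p = 2.6e-05 and 2.2e-05). Its values rest on 106 to 477 counts per library, and Gm45507 on the opposite strand shares 504 bases of its exons.

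**Figure D2:**
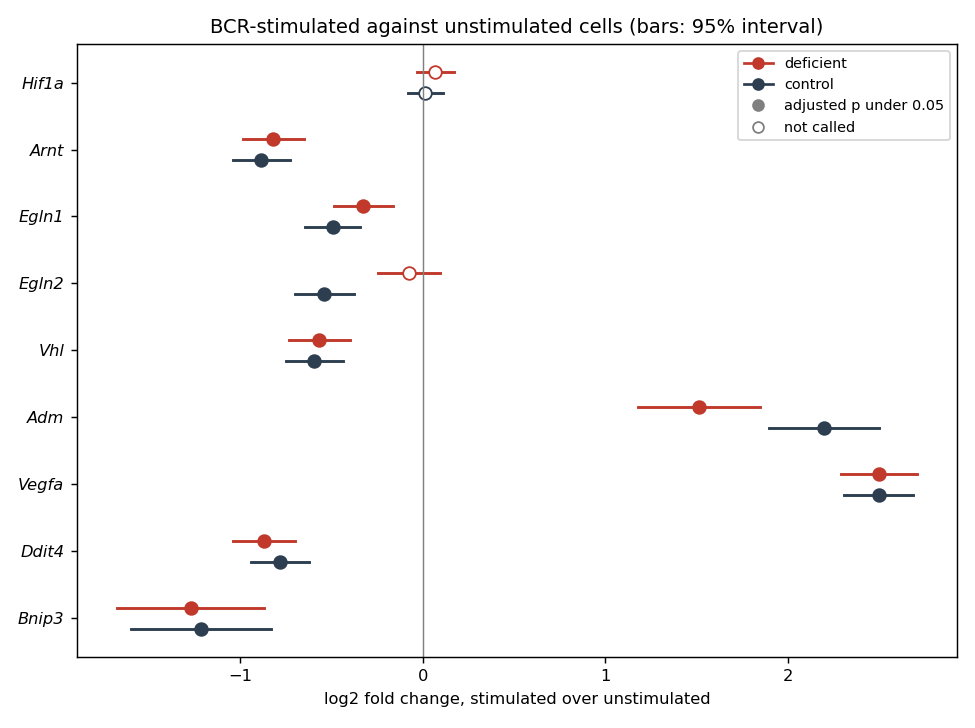
Log2 change of each gene with BCR stimulation (horizontal axis, stimulated over unstimulated) in deficient and in control cells, from the fit of all 13 libraries. Points are estimates and bars are 95% intervals. Adm and Vegfa lie right of 0 in both genotypes, Egln2 lies near 0 in deficient cells only (-0.08, against -0.54 in control cells), and Hif1a lies near 0 in both.

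Between genotypes after stimulation, 1 of the 9 genes was higher in deficient cells (Egln2), 1 was lower (Adm) and 7 did not pass the test. All genes tested were called at 2.01% in this comparison, 0.751% higher and 1.26% lower. Deficient and control libraries did not overlap for 4 of the 9 genes (Adm, Egln2, Egln1 and Ddit4), against 17.8% of all genes. The median log2 difference of the 9 genes was -0.00619, beside 0.00282 for all genes.

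Adm averaged 10.4 ± 1.05 CPM in deficient stimulated libraries and 21.9 ± 2.53 CPM in control stimulated libraries (SD, n = 3 each). It was 2.11-fold lower in deficient cells, with a log2 difference of -1.08 ± 0.15 (95% interval -1.40 to -0.76) and an adjusted p of 0.000970 in edgeR's quasi-likelihood test. Marker genes of other cell types also differed between these libraries. Among 7 dendritic markers, Zbtb46 alone was called, at 18.3 CPM on average in deficient and 43.7 CPM in control stimulated libraries (log2 difference -1.25 ± 0.15; edgeR's quasi-likelihood test, adjusted p = 0.000242). The list's summed level was 68.4, 68.9 and 40.8 CPM in deficient stimulated libraries, against 85.6, 72.0 and 82.4 CPM in control stimulated libraries. Most other dendritic markers had slightly higher means in deficient cells: Flt3 averaged 20.7 CPM in deficient and 17.9 CPM in control, Itgax 9.83 and 9.17 CPM, Siglech 5.64 and 4.09 CPM, and Clec9a 1.59 and 1.57 CPM. The exception was Xcr1, at 2.70 CPM in deficient and 2.99 CPM in control stimulated libraries. The median log2 difference of the 7 markers was 0.111. Zbtb46 averaged 6.90 CPM in deficient and 12.55 CPM in control unstimulated libraries, so its mean was higher after stimulation in both genotypes. Means of the other dendritic markers were lower after stimulation, apart from Xcr1 in control cells (2.77 CPM unstimulated, 2.99 CPM stimulated). Between genotypes, 1 of the 7 markers was also called lower in deficient cells without stimulation. Which cells the Zbtb46 RNA came from was not tested.

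Summed myeloid markers (13 of 14 measured) overlapped, at 200.3, 103 and 91.7 CPM in deficient and 112, 103 and 206 CPM in control stimulated libraries, with Lyz2 as the largest member at 45.9 and 38.3 CPM on average. The median log2 difference of the 13 markers was -0.416, and 1 was called, Mrc1, a macrophage receptor, at 1.84 CPM in deficient and 4.45 CPM in control stimulated libraries (log2 difference -1.28 ± 0.30; edgeR's quasi-likelihood test, adjusted p = 0.0361). The macrophage complement genes had lower means in deficient cells without passing: C1qa averaged 1.78 CPM in deficient and 3.84 CPM in control, C1qb 2.20 and 4.97 CPM, and C1qc 2.39 and 4.13 CPM. Summed endothelial and stromal markers, of which Pecam1 held the largest share, were 57.5 to 69.5 CPM in deficient and 36.5 to 53.3 CPM in control stimulated libraries. Without stimulation that sum was 236 to 297 CPM in deficient and 209 to 226 CPM in control libraries, so it was also lower after stimulation in both genotypes. Pecam1 averaged 54.3 CPM in deficient and 35.4 CPM in control stimulated libraries (log2 difference 0.62 ± 0.12; edgeR's quasi-likelihood test, adjusted p = 0.0169). Of the 7 tested markers of this list Pecam1 alone was called, and their median log2 difference was -0.188. Most of the other markers had lower means in deficient cells, such as Vwf (1.94 against 2.19 CPM) and Col3a1 (0.182 against 0.601 CPM). Kdr was higher (3.97 against 2.32 CPM) and Cdh5 was alike (1.62 CPM in each). Of 13 erythroid markers 10 had a row, but the globin genes Hba-a1, Hba-a2, Hbb-b1 and Hbb-b2 had 0 counts in the stimulated libraries. The erythroid sum, carried by the remaining genes, was 115 to 1079.5 CPM in deficient and 283 to 448 CPM in control stimulated libraries. The median log2 difference of the 6 tested was 0.697, and 0 were called. Of the 10 B cell markers 1 was called, lower in deficient stimulated cells, where Fcer2a averaged 407 CPM against 534 CPM in control. The part of these cell types in the differences of Adm and Egln2, and in the changes with stimulation, was not tested.

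Egln2 averaged 115 ± 3.52 CPM in deficient stimulated libraries and 79.3 ± 0.919 CPM in control stimulated libraries (SD, n = 3 each). The log2 difference was 0.53 ± 0.08 (95% interval 0.36 to 0.70; 1.45-fold higher; edgeR's quasi-likelihood test, adjusted p = 0.00184). Leaving out any single library kept the Adm difference between -1.17 and -0.98 and the Egln2 difference between 0.52 and 0.57, each still called. Without both deficient libraries numbered 1, the differences were -1.05 for Adm (adjusted p = 0.00263) and 0.57 for Egln2 (adjusted p = 0.000149), again by edgeR's quasi-likelihood test.

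Ddit4 lay just outside the threshold after stimulation, at 26.5 ± 0.249 CPM in deficient and 32.9 ± 1.03 CPM in control libraries (SD, n = 3 each). The log2 difference was -0.31 ± 0.08 (95% interval -0.48 to -0.14), with an adjusted p of 0.0594 in edgeR's quasi-likelihood test. DESeq2 called it (log2 difference -0.33, adjusted p = 0.0132). Egln1 was 41.9 ± 1.46 CPM in deficient and 38.2 ± 1.298 CPM in control stimulated libraries (SD, n = 3 each), a log2 difference of 0.13 ± 0.08 (95% interval -0.03 to 0.29; adjusted p = 0.546). Vegfa differed by -0.18 ± 0.09 (-0.37 to 0.02; adjusted p = 0.489), with overlapping groups. For the remaining 4 genes the log2 difference was 0.01 ± 0.05 for Hif1a, 0.09 ± 0.08 for Arnt, -0.01 ± 0.08 for Vhl and -0.03 ± 0.19 for Bnip3. The 95% interval of Hif1a, -0.09 to 0.11, was the narrowest of the 9 and that of Bnip3, -0.44 to 0.37, the widest.

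Without stimulation 0 of the 9 genes were called between genotypes, where 0.324% of all genes were (0.125% higher, 0.199% lower). At an unadjusted p under 0.05, edgeR's quasi-likelihood test gave 2 of the 9, Adm and Ddit4, beside 1171 of all 13574 genes, and DESeq2 also called 0 after adjustment. The same 2 genes had deficient and control libraries that did not overlap, against 8.72% of all genes. Adm averaged 3.62 ± 0.411 CPM in deficient (SD, n = 3) and 4.76 ± 0.743 CPM in control unstimulated libraries (SD, n = 4), a log2 difference of -0.39 ± 0.15 (95% interval -0.71 to -0.08; adjusted p = 0.446). Ddit4 averaged 48.5 ± 3.47 CPM in deficient and 56.6 ± 5.004 CPM in control unstimulated libraries, a log2 difference of -0.22 ± 0.07 (-0.38 to -0.07; adjusted p = 0.355). Vegfa differed by -0.18 ± 0.09 (adjusted p = 0.613), and Egln2 by 0.07 ± 0.07 (-0.09 to 0.23; adjusted p = 0.860). The other 5 genes differed by -0.05 to 0.03 on the log2 scale. Over the 9 genes the median log2 difference was -0.0356, beside -0.0187 for all genes.

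**Figure D3:**
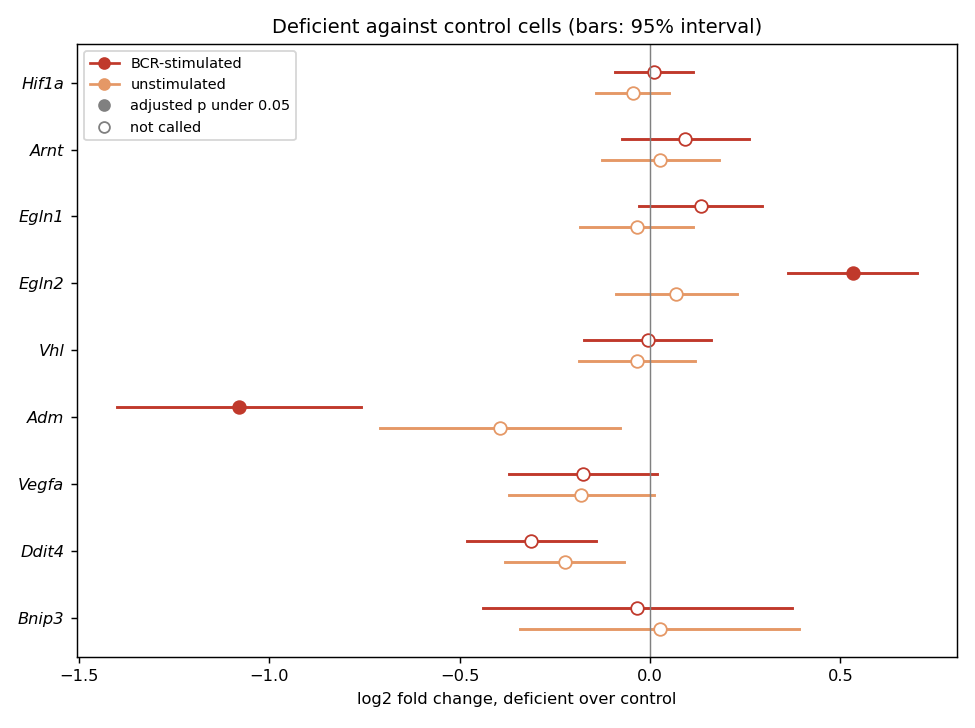
Log2 difference of each gene between genotypes (horizontal axis, deficient over control) after stimulation and without it. Points are estimates from the fit of all 13 libraries and bars are 95% intervals. After stimulation Adm lies at -1.08 and Egln2 at 0.53, and without stimulation both lie closer to 0, at -0.39 and 0.07.

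Whether stimulation acted differently in the genotypes was tested as the difference of the responses, deficient minus control. Of the 9 genes 0 were called, beside 1 of all genes tested (0.00737%, higher; 0.00% were lower). Across all genes edgeR's quasi-likelihood test had 510 at an unadjusted p under 0.05, and DESeq2 called 38 after adjustment, with 0 of the 9 among them. Egln2 differed by 0.46 ± 0.11 on the log2 scale (95% interval 0.23 to 0.70; adjusted p = 0.284) and Adm by -0.69 ± 0.21 (-1.13 to -0.24; adjusted p = 0.807). Egln1 differed by 0.17 ± 0.10 (-0.05 to 0.39), and the other 6 genes by -0.09 to 0.07. The Adm and Egln2 responses are therefore not shown by this fit to differ between genotypes.

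Libraries of the same genotype and number deviated together in both states, so the numbers pair the states within a genotype. With that number as a block within each genotype, 68 genes (0.501%) were called for the difference of responses, 48 of them higher (0.354%). Egln2 was among those 48, at 0.50 ± 0.08 (95% interval 0.34 to 0.67; edgeR's quasi-likelihood test, adjusted p = 0.00386). Adm was not called, at -0.73 ± 0.21 (-1.17 to -0.28; adjusted p = 0.229), and neither was Egln1, at 0.19 ± 0.09 (adjusted p = 0.691).

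Between libraries of the same number, the log2 ratio of stimulated to unstimulated Egln2 was 0.07, -0.19 and -0.10 in deficient pairs 1 to 3 and -0.65, -0.49 and -0.58 in control pairs 1 to 3. Adm was 3.13-, 2.35- and 3.18-fold higher after stimulation in the deficient pairs and 5.94-, 3.70- and 4.79-fold higher in the control pairs. Egln1 had log2 ratios of -0.28, -0.33 and -0.36 in the deficient and -0.62, -0.45 and -0.45 in the control pairs. For these 3 genes no deficient pair overlapped a control pair, and the 2-sided exact permutation p was 0.1, the smallest that 3 against 3 allows. The share of all genes whose pairs do not overlap was not computed, so this count has no background to be read against. For the other 6 genes the pairs of the genotypes overlapped. Vegfa averaged the same log2 ratio of 2.51 in both.

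**Figure D4:**
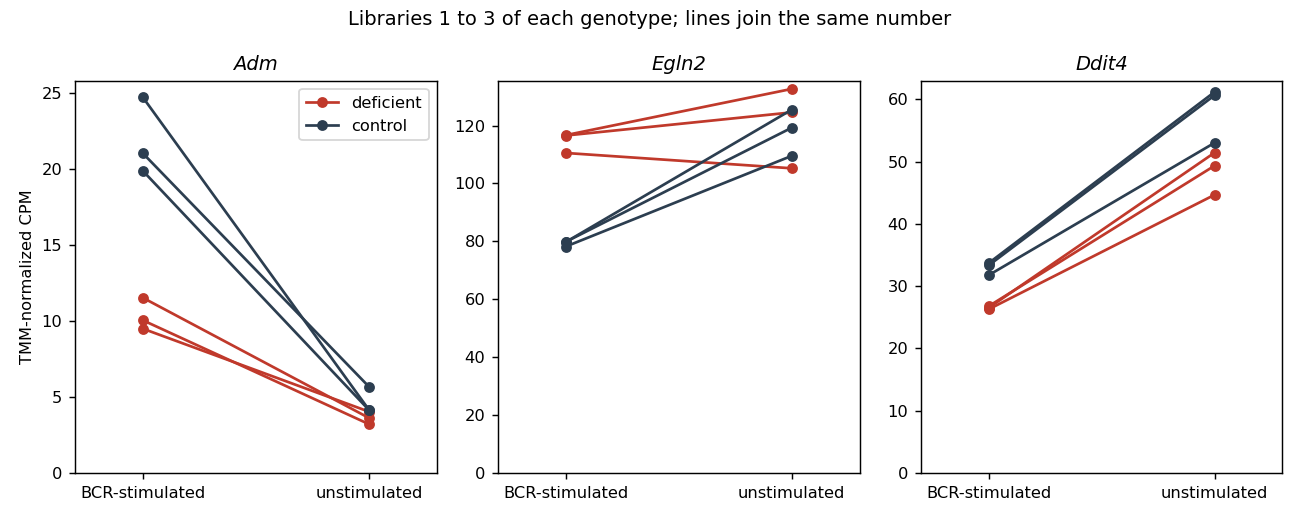
TMM-normalized CPM (vertical axis, from 0) of Adm, Egln2 and Ddit4 in libraries 1 to 3 of each genotype, stimulated on the left and unstimulated on the right. Each line joins the libraries of the same number and genotype. Egln2 lines of the deficient genotype are close to flat (105 to 133 CPM) while those of the control genotype end at 78.2 to 79.8 CPM when stimulated, and Adm lines separate on the stimulated side.

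Around these 9 genes, 143 symbols in 6 lists of the pathway and its neighbours were examined, of which 120 were tested (members included). Between genotypes 0 of the 120 were called without stimulation, and after stimulation 2 were higher (Egln2 and Siah2) and 1 was lower (Adm), 2.50% against 2.01% of all genes. Siah2, a ubiquitin ligase that destroys prolyl hydroxylases, differed by 0.31 ± 0.07 on the log2 scale (edgeR's quasi-likelihood test, adjusted p = 0.0251). Its call was lost (adjusted p = 0.0580 to 0.104) without deficient stimulated library 2 or 3 or without control stimulated library 1, 2 or 3. With stimulation 42 of the 120 rose and 37 fell in deficient cells, 65.8% against 57.9% of all genes, and 34 rose and 42 fell in control cells, 63.3% against 60.3% of all genes. For the difference of responses 0 of the 120 were called. The 2 stimulation comparisons use separate libraries of each genotype, and a gene called in one genotype and not in the other is not thereby shown to differ between them.

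Among 22 tested genes of the HIF machinery, 5 rose and 6 fell with stimulation in deficient cells (50% called, against 57.9% of all genes) and 5 rose and 9 fell in control cells (63.6% against 60.3%). Cited2, which competes with HIF for the coactivator p300, rose by a log2 change of 2.03 ± 0.08 in deficient and 1.88 ± 0.08 in control cells, and Siah2 rose by 1.28 ± 0.07 and 1.06 ± 0.06. Ep300, the gene for that coactivator, changed by -0.98 ± 0.07 in deficient and -1.02 ± 0.07 in control cells. The median log2 change of the list was -0.0654 in deficient and -0.0756 in control cells, beside -0.107 and -0.128 for all genes.

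HIF targets moved in both directions. Outside glycolysis, 12 of 38 tested rose and 10 fell in deficient cells (57.9% called, the same share as of all genes), and 9 rose and 11 fell in control cells (52.6% against 60.3%). The transcriptional repressor gene Bhlhe40 rose by 1.95 ± 0.07 in deficient and 2.26 ± 0.07 in control cells on the log2 scale. Hilpda, which acts on lipid droplets, rose by 1.79 ± 0.12 and 2.08 ± 0.11, and Bnip3l, the close relative of Bnip3, changed by -1.06 ± 0.07 and -1.14 ± 0.07. Of 20 tested targets in glycolysis, 9 rose and 8 fell in deficient cells (85% called against 57.9% of all genes) and 7 rose and 9 fell in control cells (80% against 60.3%). Hk2, which phosphorylates glucose, rose by 2.33 ± 0.09 in deficient and 2.39 ± 0.09 in control cells, and Ldha, which makes lactate, by 1.55 ± 0.09 and 1.59 ± 0.08. The adjusted p of these changes was at most 5.39e-09 in edgeR's quasi-likelihood test.

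Of 14 tested genes for adrenomedullin and VEGF ligands and receptors, 7 rose and 1 fell in deficient cells (57.1% called against 57.9% of all genes) and 5 rose and 1 fell in control cells (42.9% against 60.3%). Flt1, a VEGF receptor, rose by a log2 change of 2.21 ± 0.41 in deficient and 1.67 ± 0.37 in control cells. Calcrl, the receptor subunit for adrenomedullin, fell by 0.64 ± 0.13 in deficient cells and by 0.46 ± 0.12 in control cells on the log2 scale. In edgeR's quasi-likelihood test the adjusted p was 0.000198 and 0.00103 for Flt1 and 0.000441 and 0.00364 for Calcrl. Apart from Adm, 0 genes of this list were called between genotypes in either state.

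Of 18 tested genes of the Ddit4 and mTORC1 axis, 7 rose and 7 fell in deficient cells (77.8% called against 57.9% of all genes) and 6 rose and 8 fell in control cells (77.8% against 60.3%). Txnip, an inhibitor of glucose uptake, changed by -1.29 ± 0.06 in deficient and -1.30 ± 0.06 in control cells and Sesn1, which restrains mTORC1, by -1.51 ± 0.10 and -1.63 ± 0.09. Sesn2, of the same family and also a restraint on mTORC1, rose by 1.21 ± 0.09 in deficient and 1.18 ± 0.08 in control cells. Eif4ebp1, a translation repressor that mTORC1 inactivates, rose by 1.11 ± 0.08 and 1.11 ± 0.07. Of 14 tested genes around Bnip3 and mitophagy, 4 rose and 8 fell in each genotype (85.7% called, against 57.9% of all genes in deficient and 60.3% in control cells). Pink1, the kinase that marks damaged mitochondria, changed by -1.48 ± 0.12 in deficient and -1.59 ± 0.12 in control cells.

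**Figure D5:**
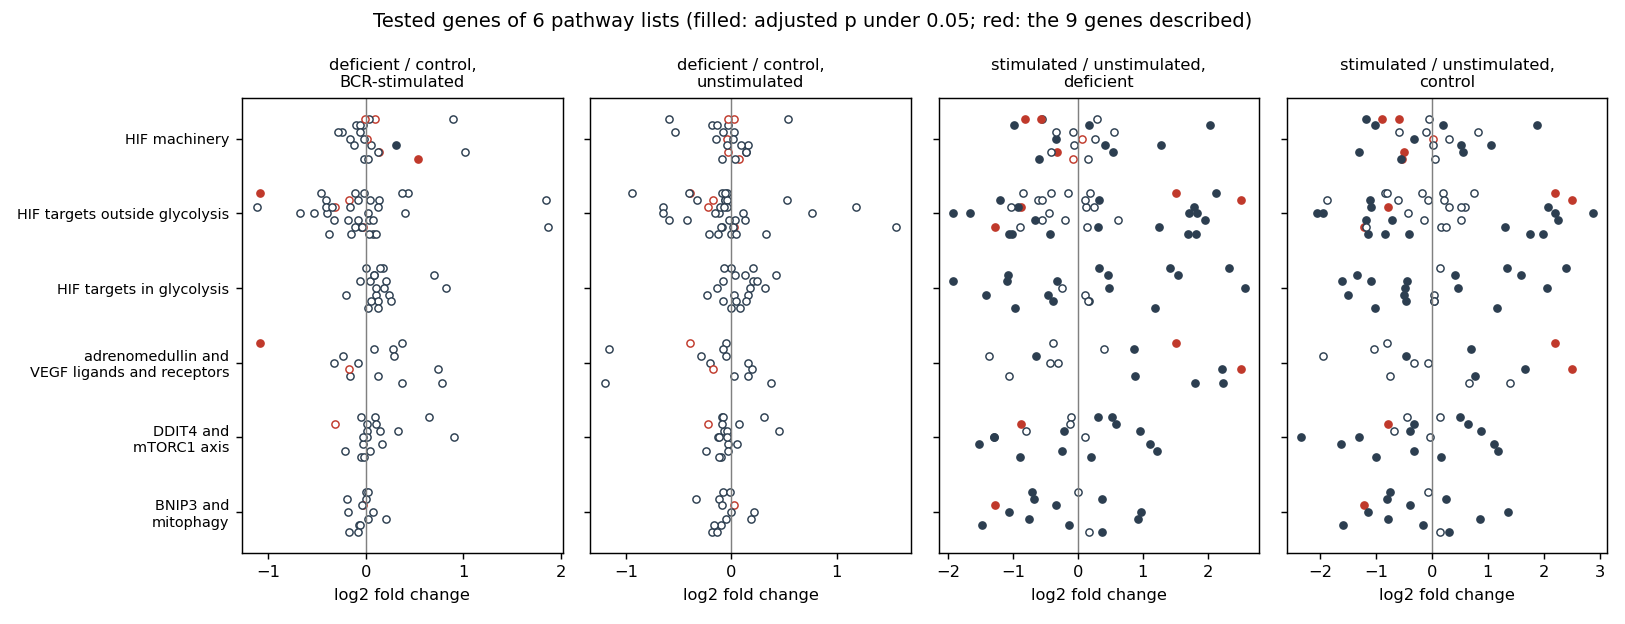
Log2 fold change (horizontal axis) of the tested genes of 6 lists (rows), for deficient over control cells in each state and for stimulated over unstimulated cells in each genotype. Each point is a gene, offset vertically for legibility, filled where the adjusted p was under 0.05, and red for the 9 genes described; a gene of several lists appears in each. Between genotypes 3 of 120 genes are filled after stimulation and 0 without it, whereas with stimulation every list holds filled points on both sides of 0.

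As a description of pattern, each gene was compared with the 9082 tested genes of at least 2 mean log2 CPM by Pearson's r of log2 CPM over the 13 libraries. All these points share the 4 groups, so r mostly reflects group means. Most like Adm were Jarid2 (0.990), Icam1 (0.985) and Rapgef6 (0.985). Most like Vegfa were Kcnh4 (0.997), Stt3a (0.995) and Tmem209 (0.995), and most like Arnt were Zmynd11, Tmed8 and Fam116a (0.994 each). Egln2 had looser companions, Serp1 (0.942), Tcf4 (0.926) and Lgmn (0.924), and Hif1a the loosest of the 9, Dnajc24 (0.838), Zeb1 (0.740) and Grsf1 (0.728). Ddit4 was most like Nrbp1 (0.985), Bnip3 most like Rltpr (0.991), Egln1 most like Fig4 (0.985) and Vhl most like Ntan1 (0.983).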

How the data were processed

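RNA of mouse splenic B cells was sequenced in 13 libraries. Each library came with a table of raw read counts by gene symbol, deposited by the authors. TopHat, HTSeq and the mm10 build are named, without versions, in the submitters' processing notes. Log2 values, for which those notes name DESeq2, were also deposited by the authors and are not used here. The annotation and strand setting of the counting are not given in the sources used here. B cells were taken by negative selection with CD43 beads, per the labels' protocols.

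The count tables held 23337 symbols, of which 1 with a missing cell was left out. Counts were fitted with edgeR 4.0.16 (R 4.3.3; filterByExpr with minimum count 10, TMM factors, robust quasi-likelihood) over all 13 libraries, with a mean per group and 9 residual degrees of freedom. Standard errors were taken as the log2 change over the square root of F. The threshold for a call was a Benjamini-Hochberg adjusted p of 0.05 over 13574 genes. The fit without a block was tested on simulated data with libraries drawn independently. The fits with a block were not tested in this way. CPM values are TMM-normalized, and correlations used a prior count of 2. The 95% intervals come from the quasi-likelihood fit and include the spread between libraries as well as counting error. The CPM value of 3 counts reflects the library total only. No replicates agreed within sampling noise. If libraries do not come from separate animals, the p-values reflect the spread of these samples alone.

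Deviations from group means of libraries with the same genotype and number correlated between states, at r = 0.830, 0.765 and 0.621 in deficient and 0.729, 0.489 and 0.569 in control cells (9658 genes). The numbers therefore pair the states within a genotype, though the labels do not name animals, and a fit with that number as a block within each genotype (4 residual degrees of freedom) was also made.

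Alternatives were DESeq2's size factors, DESeq2 1.42.0, no filter, a fit of only the groups compared, a replicate block, a sex term (read from sex-linked genes), both deficient libraries numbered 1 left out, and each library left out. By those genes, deficient libraries numbered 1 were female and 2 and 3 male, and control libraries numbered 1 were male and the others female. Sex was therefore not balanced between genotypes. GENCODE vM21 gave coordinates and exon lengths, and its names matched 89.68% of symbols and all 9 members. Named list genes are up to 4 per list and comparison with the smallest p among called genes, and likeness was ranked among tested genes outside receptor segments and predicted models. Members and lists were chosen with earlier results of these data known.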

Additional observations from a re-analysis of the deposited data

Results flagged for a closer look

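The response of Egln2 to stimulation differed between genotypes when the number of the library within each genotype entered the fit as a block. The log2 response of deficient cells minus that of control cells was 0.502 (adjusted p = 0.00386, edgeR's quasi-likelihood test). The responses of 3 deficient and 3 control library pairs of the same number did not overlap, but the share of all genes without such overlap was not computed. Without the block the same difference was 0.46 and did not pass (adjusted p = 0.284). No library of the control unstimulated group stood far from the rest of that group in any of the 9 genes.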

How the results depend on the processing

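Calls among the 9 genes ranged over few values. With stimulation, 7 were called in deficient and 8 in control cells in every alternative, and without stimulation 0 differed between genotypes in every alternative. After stimulation 2 to 3 differed between genotypes, also when each library was left out in turn. The third was Ddit4, called with DESeq2's size factors (-0.33, adjusted p = 0.0365), DESeq2 (-0.33, 0.0132), the replicate block across genotypes (-0.31, 0.0320) and without deficient unstimulated library 1 (-0.31, 0.0362). Numbers did not pair the genotypes (r from -0.595 to -0.0568 between same-numbered libraries). For the difference of responses the count was 1 (Egln2) with the replicate block and 1 (Egln2, 0.48, adjusted p = 0.0389) with sex as a term, and 0 otherwise. Apart from this, Ddit4 and the list counts given here, the block changed no call of the 9 genes.

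Genes of the lists called between genotypes after stimulation numbered 3, against 8 in DESeq2, 5 in a fit of only the groups compared and 6 with sex as a term, and 2 to 4 when each library was left out. Without stimulation sex as a term gave 1. For the difference of responses the replicate block and sex as a term gave 1 each. Of all genes, DESeq2 called 158 without and 507 with stimulation between genotypes, against 44 and 273, and sex as a term 198 and 511. The difference of responses had 38 calls in DESeq2, 10 with no filter, 68 with the replicate block, 19 with sex as a term and 13 without both deficient libraries numbered 1, against 1. Leaving out each library gave 17 to 74 genes without stimulation, 129 to 369 with it and 1 to 10 for the difference of responses. The Zc3h12a difference without stimulation passed in DESeq2 (adjusted p = 0.0175), under the sex term (0.00848) and without deficient unstimulated library 3 (0.0372) or deficient stimulated library 1 (0.0289). The causes were not tested. Only the groups compared could not be fitted for the difference of responses, which needs all 4 groups.

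Signs changed only in values near 0 that passed in no fit. Between genotypes after stimulation, Hif1a was -0.0083 with DESeq2's size factors and -0.0083 in DESeq2, and Vhl was 0.0044 with only the groups compared, 0.0069 with sex as a term and 0.0337 without both deficient libraries numbered 1, where Bnip3 was 0.0760. Without stimulation Arnt was -0.0101 and Vhl 0.0042 with the replicate block, and Arnt was -0.0192 and Bnip3 -0.120 with sex as a term. For the difference of responses, Vhl and Vegfa were -0.0057 and -0.0313 with DESeq2's size factors, -0.0031 and -0.0298 in DESeq2 and -0.0113 and -0.0010 with the replicate block, Vegfa was -0.0013 with no filter, and Arnt was -0.0209 without both deficient libraries numbered 1. Leaving out each library in turn gave, without stimulation, -0.0377 to 0.0987 for Arnt, -0.0831 to 0.0254 for Egln1, -0.0063 to 0.159 for Egln2, -0.0645 to 0.0052 for Vhl and -0.0704 to 0.167 for Bnip3. After stimulation it gave -0.0695 to 0.0330 for Vhl and -0.164 to 0.162 for Bnip3. For the responses it gave -0.0339 to 0.144 for Zc3h12a in deficient and -0.0101 to 0.0620 for Hif1a in control cells, and for their difference -0.0070 to 0.129 for Arnt, -0.0339 to 0.0597 for Vhl, -0.0985 to 0.108 for Vegfa and -0.200 to 0.139 for Bnip3. Depth limits Bnip3 and Adm most among the 9 genes, with 106 and 80 counts in their lowest libraries.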
